A study of Mus musculus with 6 samples.

Results

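The genes described here encode proteins of the tight junction: the claudins Cldn1, Cldn3, Cldn4, Cldn7, Cldn8 and Cldn23, occludin (Ocln), the adhesion molecule JAM-A (F11r), and the cytoplasmic proteins ZO-1 (Tjp1) and cingulin (Cgn). They were chosen by name, as the probes whose gene name on the array is one of these 10, which gave 15 of 41174 probes and 10 of the 27975 genes named on the array. All 15 probes stood well above background for the sample dye on each of the 6 arrays, so no gene was lost to the filter on dim probes. None was saturated on any array.

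RNA came from epithelial sheets of the mouse forestomach, the squamous-lined upper part of the rodent stomach. Every mouse carried K5-CreER, a tamoxifen-dependent Cre recombinase driven by the keratin 5 promoter of basal cells, on a mixed 129/Sv and C57/BL6 background. The 3 control mice carried nothing further by their labels, and the 3 mutants also carried Rosa26Sox2 on both alleles, from which Cre switches on the transcription factor Sox2. Both groups received 2 doses of tamoxifen at 7 weeks and were 12 weeks old. Because the keratin 5 promoter acts in basal cells, recombination starts in that layer, and the sheets hold every layer and any adhering tissue. Each sample (Cy5) was hybridised against a reference RNA pooled from 11 mouse cell lines (Cy3), so every value is a log2 ratio of sample over reference unless stated, and differences are mutant minus control.

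Tight junctions close the gap between neighbouring epithelial cells. Claudins are membrane proteins whose outer loops meet across that gap and form either a seal or a pore selective for charge and size, and each tissue combines them differently. Occludin and JAM-A lie beside them in the membrane, and ZO-1 and cingulin tie the complex to the actin cytoskeleton. In the epidermis, the best known stratified squamous epithelium, the sealing junction lies in the uppermost living cell layers.

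Some properties of the arrays touch the results. Controls 1 and 2 were nearly alike (scaled median absolute difference 0.156 log2 units over the genes tested), as were mutants 2 and 3 (0.104), against 0.326 to 0.730 for the remaining pairs. Control 3, alone on its slide and alone on its scan day, had a median sample signal 4.66 times background against 11.3 to 12.4 times elsewhere. Slides were not shared between the groups, and the effect of slide cannot be told apart from that of genotype. Glandular stomach genes, 30 of 30 tested, had a median ratio 2.94 log2 units lower on control 3 than on controls 1 and 2. Squamous basal keratins were strongly detected on every array, with Krt5 ratios of 3.56 to 3.71 in controls and 2.97 to 3.45 in mutants. The Rosa26 locus transcript Gt(ROSA)26Sor fell by 3.69 log2 units in mutants (limma, adjusted p = 0.00116), whereas Sox2 itself differed by -0.43 (adjusted p = 0.143) on its single probe. That value does not go the way of an added Sox2, and whether the transgene holds the probe's sequence is not known from the labels.

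None of the 10 tight junction genes passed the threshold of an adjusted p of 0.05 (limma, Benjamini-Hochberg over all genes), against 2.82% of the 20569 genes tested. The widest difference was a higher Cldn7 in mutants, 8.01-fold, and the next in size were lower values of Cldn4 and Cldn23, each 1.64-fold. The groups did not overlap for 4 of the 10 genes, with Cldn7 higher and Cldn4, Cldn23 and Ocln lower in mutants. Over all genes, groups did not overlap in 37.9%, with 19.7% higher and 18.2% lower in mutants, so the share among the tight junction genes was close to the background. In the sample channel alone the groups of Cldn23 and Ocln overlapped. Before adjustment 2 of the 10, Cldn7 and Cldn4, had p under 0.05, against 23.8% of all genes. The difference was below 0 in 6 genes and above 0 in 4, with a median of -0.34 against 0.01 over all genes, and 49.4% of all genes were below 0. In RNA from whole sheets, fewer cells of a type and less RNA per cell cannot be told apart, and 3 arrays a group limit the precision of each difference.

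**Figure D1:**
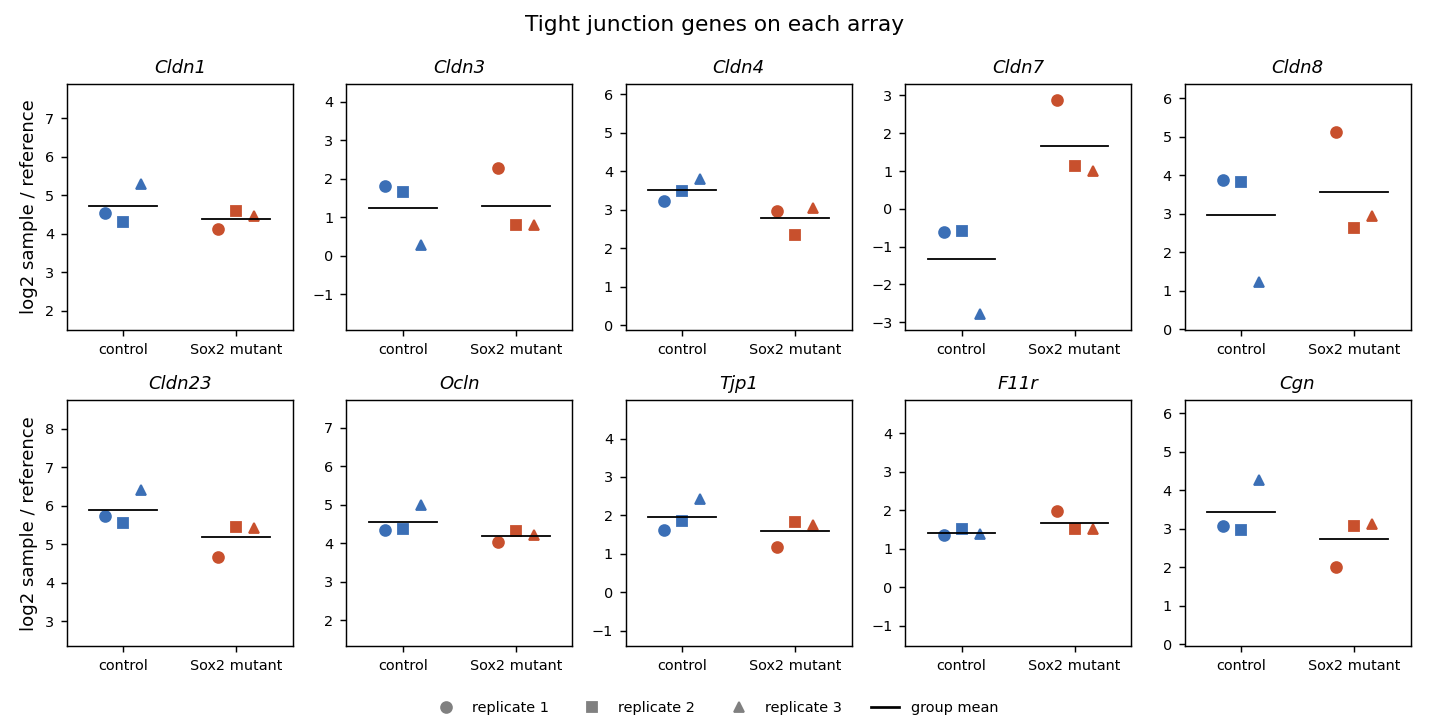
Log2 ratio of sample over reference for each of the 10 tight junction genes on each array, controls in blue and Sox2 mutants in red, with the replicate number as symbol and the group mean as a line. The panels span the same number of log2 units, except that the Cldn7 panel is slightly taller. All 3 mutants lie above all 3 controls for Cldn7, and control 3 and mutant 1 lie farthest apart from their group for Cldn3, Cldn7 and Cldn8.

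Cldn7 encodes a claudin found mainly on the basolateral side of epithelial cells, where it binds the adhesion molecule EpCAM. Its ratio was -0.61, -0.60 and -2.78 on controls 1 to 3 and 2.89, 1.13 and 1.00 on mutants 1 to 3. Every mutant was thus higher than every control, while control 3 stood far below the other controls and mutant 1 above the other mutants. The means were -1.33 ± 1.26 and 1.67 ± 1.05 (SD, n = 3 each), a difference of 3.00 log2 units (SE 0.76, 95% interval 1.17 to 4.83). It missed the threshold (limma, adjusted p = 0.0954). Permuting the arrays exactly gave a two-sided p of 0.1, the smallest this design can give.

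The spot intensities before normalization show where the Cldn7 ratio comes from. The sample channel read 3129, 3076 and 292 on controls 1 to 3 and 65014, 14902 and 13654 on mutants 1 to 3. In the reference channel, which holds the same RNA on every array, the spot read 4972, 4026 and 3158 on controls and 7734, 6103 and 5942 on mutants. The group difference therefore lay in the sample channel, where it was 10.3-fold after normalization (3.37 log2 units). The size of the difference rested in part on the arrays that stood apart. Without control 3, which leaves only arrays of the same scan day, it was 2.28 (limma, adjusted p = 0.0855), and without mutant 1 it was 2.40 (adjusted p = 0.166). Between the near-identical pairs alone, controls 1 and 2 against mutants 2 and 3, it was 1.67 and passed the threshold (adjusted p = 0.000349), but in that fit 37.6% of all genes passed. Another setting weighted each array by how closely it followed the fitted group means. It gave control 3 a weight of 0.0911 and mutant 1 a weight of 0.174, against 1.58 to 4.51 for the arrays of those pairs. This weighting therefore nearly repeats the fit between the pairs. It called the same 3 genes (Cldn3, Cldn7 and Cldn8), with 41.8% of all genes called. With slide as a random block the Cldn7 difference was 3.24 (limma, adjusted p = 0.635).

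The single Cldn7 probe and the sequence around both annotated starts of the gene are shown because this gene gave the widest difference. The probe starts at base 872 of its transcript and covers chr11:69780780-69781089 on the plus strand of mm9, the build named in the file headers. Its 60 bases span 310 bases of genome, so it bridges an intron and reads spliced RNA. The promoters are RefSeq's, from 250 bases before to 50 after each start, at chr11:69964529-69964828 and chr11:69965171-69965470 on the plus strand of GRCm38.p6. Capitals mark matches on either strand to CACCTG (an E-box), GGGCGG (a GC box), CATTGT or CTTTGT (forms of the SOX motif core).
Cldn7 probe: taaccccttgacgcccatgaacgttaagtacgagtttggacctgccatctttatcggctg
Cldn7 promoter, upstream start: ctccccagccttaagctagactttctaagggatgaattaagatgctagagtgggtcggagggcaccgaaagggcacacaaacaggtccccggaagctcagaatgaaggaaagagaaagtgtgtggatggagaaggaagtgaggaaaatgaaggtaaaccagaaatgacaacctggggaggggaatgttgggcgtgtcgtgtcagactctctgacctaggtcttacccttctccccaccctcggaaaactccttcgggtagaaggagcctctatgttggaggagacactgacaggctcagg
Cldn7 promoter, downstream start: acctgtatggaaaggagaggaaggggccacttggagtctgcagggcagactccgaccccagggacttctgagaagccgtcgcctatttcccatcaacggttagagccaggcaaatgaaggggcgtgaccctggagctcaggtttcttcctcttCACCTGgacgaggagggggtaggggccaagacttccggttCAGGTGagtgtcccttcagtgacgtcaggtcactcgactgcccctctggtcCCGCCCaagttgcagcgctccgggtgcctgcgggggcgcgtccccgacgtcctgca
The upstream window holds no match, and the downstream one holds 2 E-boxes and 1 GC box. Of all 32851 RefSeq promoter windows of this length, 20.2% hold the E-box letters and 35.7% the GC box letters. Both common forms of the core that SOX factors bind, CATTGT and CTTTGT on either strand, were absent from both Cldn7 windows. Over the 10 windows matched to 8 of the 10 genes, CATTGT was in none and CTTTGT in 2, those of Cldn1 and Cldn4, against 12.6% and 18.7% of all windows. A match or its absence describes these letters in these windows only.

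**Figure D2:**
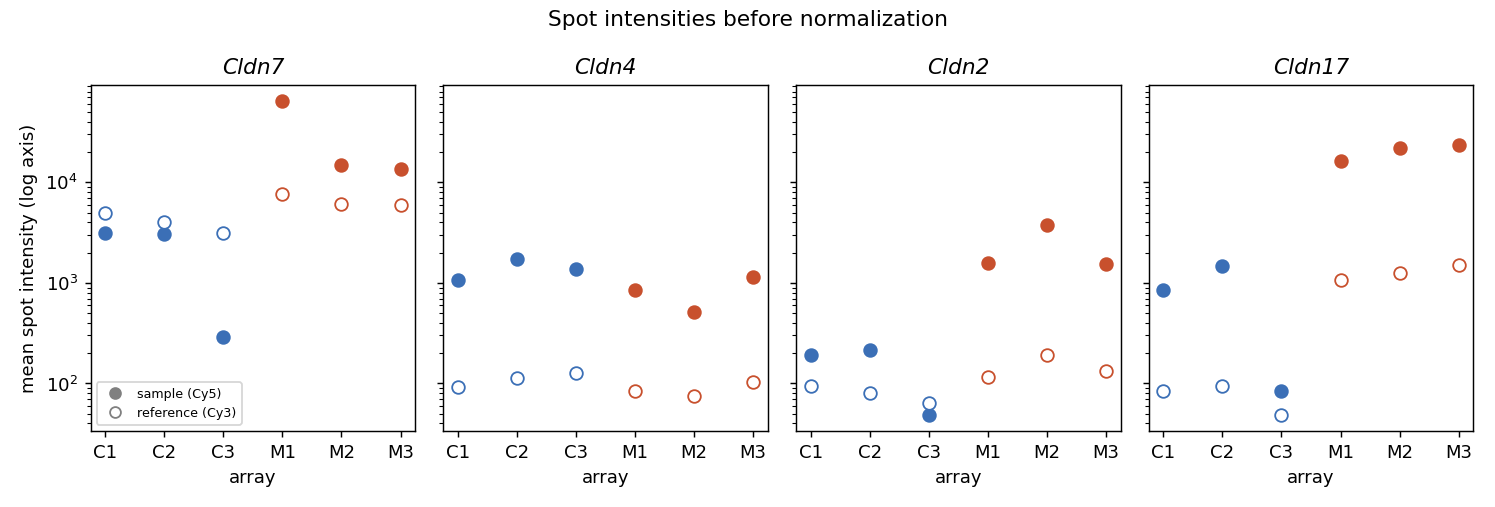
Mean spot intensity before normalization, on a log axis, in the sample channel (filled) and the reference channel (open) for Cldn7, Cldn4, Cldn2 and Cldn17 on controls (C1 to C3, blue) and mutants (M1 to M3, red). For Cldn7 the reference stays between 3158 and 7734 while the sample runs from 292 to 65014. For Cldn17 both channels are higher on every mutant array.

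Cldn4 and Cldn3 are sealing claudins, known as the receptors of Clostridium perfringens enterotoxin. The genes are neighbours on mouse chromosome 5, with 39279 bases and no other gene of the RefSeq table between them. Cldn4 had ratios of 3.22, 3.48 and 3.80 on the controls and 2.96, 2.35 and 3.04 on the mutants. All mutants were lower than all controls, and mutant 2 was the lowest array. The difference was -0.72 (SE 0.24, 95% interval -1.30 to -0.13), and it missed the threshold (limma, adjusted p = 0.152). Over the 23 alternative settings it stayed negative, from -1.35 to -0.43. The sample channel alone gave -1.28, and the reference spot read 75 to 126 units before normalization, well above background on 5 of 6 arrays.

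Cldn3 had ratios of 1.81, 1.67 and 0.28 on the controls and 2.28, 0.81 and 0.81 on the mutants. The groups overlapped, with control 3 lowest and mutant 1 highest of all arrays. The difference was 0.05 with an SE of 0.56, so the interval from -1.30 to 1.40 holds sizeable differences either way (limma, adjusted p = 0.968). Its sign depended on those arrays: it was -0.44 without control 3 and -0.44 without mutant 1. Between the near-identical pairs it was -0.93 and passed the threshold (limma, adjusted p = 0.00146), but in that fit 37.6% of all genes passed. With the near-identical arrays averaged it was 0.53 (limma, adjusted p = 0.759). The neighbours thus did not vary alike between arrays, since control 3 lay 1.46 below controls 1 and 2 for Cldn3 but 0.45 above them for Cldn4.

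The promoters of this neighbouring pair are shown with the same capitals, from GRCm38.p6: Cldn3 at chr5:134985964-134986263 on the plus strand and Cldn4 at chr5:134946885-134947184 on the minus strand.
Cldn3 promoter: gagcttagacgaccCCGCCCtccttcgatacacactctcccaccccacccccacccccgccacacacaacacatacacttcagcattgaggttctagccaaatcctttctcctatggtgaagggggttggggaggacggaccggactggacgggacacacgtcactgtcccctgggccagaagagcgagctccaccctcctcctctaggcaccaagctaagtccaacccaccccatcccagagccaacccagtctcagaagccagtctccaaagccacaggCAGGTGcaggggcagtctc
Cldn4 promoter: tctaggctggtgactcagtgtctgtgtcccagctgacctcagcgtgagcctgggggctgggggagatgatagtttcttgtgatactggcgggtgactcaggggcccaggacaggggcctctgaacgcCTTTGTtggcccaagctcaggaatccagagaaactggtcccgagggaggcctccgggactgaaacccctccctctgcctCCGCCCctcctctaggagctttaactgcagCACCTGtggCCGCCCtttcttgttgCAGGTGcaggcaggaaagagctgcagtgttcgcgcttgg
Cldn3 has 1 E-box and 1 GC box in this window, and Cldn4 has 2 of each and 1 CTTTGT.

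Cldn8, best known as a cation barrier of the distal nephron, had ratios of 3.86, 3.82 and 1.23 on the controls and 5.13, 2.62 and 2.94 on the mutants. Control 3 was again the lowest array and mutant 1 the highest, and the groups overlapped. The difference was 0.59 (SE 0.94, 95% interval -1.68 to 2.86; limma, adjusted p = 0.726). The reference was not well above background for this probe on any array, so the ratio follows the sample channel, which read 913, 1065 and 121 on controls and 2702, 491 and 585 on mutants. Leaving out control 3 turned the difference to -0.28 and leaving out mutant 1 to -0.19. Between the near-identical pairs it was -1.06 and passed the threshold (limma, adjusted p = 0.00297), as did 37.6% of all genes. With the near-identical arrays averaged it was 1.42 (limma, adjusted p = 0.626).

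Cldn1, the claudin without which mouse epidermis loses its water barrier, had ratios of 4.53, 4.30 and 5.28 on the controls and 4.11, 4.59 and 4.46 on the mutants. The groups overlapped, and the difference was -0.32 (SE 0.28, 95% interval -0.99 to 0.36; limma, adjusted p = 0.518). A second Cldn1 probe gave -0.14. Cldn23, a less studied claudin, had ratios of 5.72, 5.56 and 6.41 on the controls and 4.68, 5.44 and 5.43 on the mutants. All mutants were lower than all controls, although mutants 2 and 3 lay close under control 2. The difference was -0.71 (SE 0.30, 95% interval -1.45 to 0.02; limma, adjusted p = 0.219), and it shrank to -0.21 between the near-identical pairs.

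**Figure D3:**
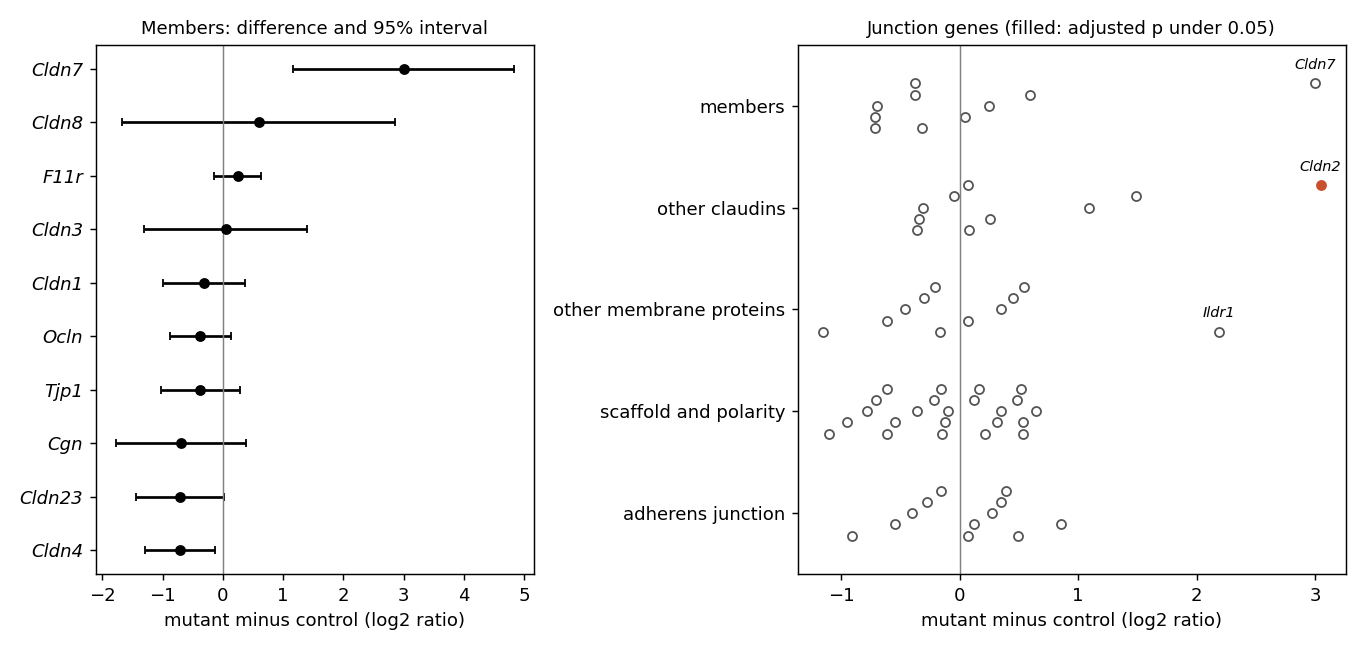
Left, the difference of mutants minus controls in log2 ratio with its 95% interval from limma for the 10 tight junction genes. Right, the difference of every tested junction gene by list, filled where the adjusted p is under 0.05. Cldn2 is the one filled point, and Cldn7 lies beside it at 3.00 with an interval from 1.17 to 4.83.

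Occludin, a membrane protein that is not a claudin, had Ocln ratios of 4.34, 4.37 and 5.0 on the controls and 4.04, 4.33 and 4.22 on the mutants. The groups did not overlap, but mutant 2 lay only just under control 1. The difference was -0.37 (SE 0.21, 95% interval -0.88 to 0.14; limma, adjusted p = 0.325). The sample channel alone gave -0.26 with overlapping groups. Before normalization the common reference spot read 265 to 282 on controls and 291, 458 and 480 on mutants 1 to 3. A second probe, nearer the start of the transcript, gave -0.24 with overlapping groups, but its reference was well above background on only 1 of 6 arrays. JAM-A, an immunoglobulin-like adhesion molecule, had F11r ratios of 1.35, 1.52 and 1.39 on the controls and 1.97, 1.52 and 1.51 on the mutants. Mutant 1 was the one array that stood apart. F11r had the smallest standard error of the 10 genes, with a difference of 0.25 (SE 0.16, 95% interval -0.15 to 0.64; limma, adjusted p = 0.389).

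Among the cytoplasmic proteins, Tjp1 (ZO-1), the scaffold that binds claudins and occludin to actin, had ratios of 1.63, 1.85 and 2.42 on the controls and 1.17, 1.83 and 1.76 on the mutants. The groups overlapped, and the difference was -0.38 (SE 0.27, 95% interval -1.04 to 0.28; limma, adjusted p = 0.424). Its other probe, nearer the start of the transcript, gave 0.02. Cingulin, which binds ZO-1 at the junction, had Cgn ratios of 3.07, 2.97 and 4.27 on the controls and 2.02, 3.08 and 3.12 on the mutants. Control 3 and mutant 1 were the extremes, and the difference was -0.70 (SE 0.45, 95% interval -1.78 to 0.39; limma, adjusted p = 0.379).

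The probes of a gene did not all give one value, and the inner probes of Ocln, Tjp1 and Cgn are shown because they gave a smaller difference than the probe that represents each gene. All are read in mm9 on the minus strand.
Ocln probe, chr13:101309849-101311042: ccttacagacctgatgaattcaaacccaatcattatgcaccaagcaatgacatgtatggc
Tjp1 probe, chr7:72458154-72458213: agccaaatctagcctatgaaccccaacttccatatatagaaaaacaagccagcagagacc
Cgn probe, chr3:94577435-94577494: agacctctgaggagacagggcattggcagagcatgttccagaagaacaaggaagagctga
The Ocln probe spans 1194 bases of genome and so also bridges an intron. These spots gave -0.24, 0.02 and -0.18, against -0.37, -0.38 and -0.70 for the representing probes. The Ocln spot among them was dim, with a reference of 38 to 93 units before normalization, which limits its ratio. The third Cgn probe gave -0.66 (SE 0.20) with every mutant below every control: 2.63, 2.72 and 3.17 on the controls and 1.89, 2.37 and 2.27 on the mutants. It did not pass over all probes either (limma, adjusted p = 0.124).

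Within each group the genes followed the arrays that stood apart. On control 3, Cldn8, Cldn7 and Cldn3 lay 2.62, 2.17 and 1.46 log2 units below the mean of controls 1 and 2. Cgn, Cldn1, Cldn23, Tjp1, Ocln and Cldn4 lay 1.24, 0.86, 0.77, 0.68, 0.65 and 0.45 above it. On mutant 1 the same claudins went the other way: Cldn8, Cldn7 and Cldn3 lay 2.35, 1.82 and 1.47 above the mean of mutants 2 and 3, while Cgn, Cldn23, Tjp1, Cldn1 and Ocln lay below it. The deviations had opposite signs in 9 of the 10 genes, with Cldn4 the exception, and in 58.1% of all genes.

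Markers of other tissue moved with these arrays in part. On control 3 the glandular stomach list, for which the summed sample level was 40245 units against 1956903 and 2099264 on the other controls, was low together with Cldn3, Cldn7 and Cldn8. In the mutants that list ran from 345839 on mutant 1 to 1375072 on mutant 2, so on mutant 1 the 3 claudins were high where the glandular genes were lower. Endothelial genes, 10 of 10 tested, went the same way as the 3 claudins on both arrays, with a median 1.18 lower on control 3 and 0.53 higher on mutant 1. Their summed level was 16712 on control 3 against 30756 and 29700, and 49213 on mutant 1 against 28802 and 27216. Immune genes, 10 of 12 tested, did so with medians of -0.25 and 0.52. Simple epithelial keratins, 5 of 5 tested, had a median 3.33 lower on control 3 and 0.92 lower on mutant 1. Fibroblast and smooth muscle genes, 12 of 12 tested, were 2.07 and 0.50 lower on the same arrays. Squamous suprabasal genes, 14 of 14 tested, were 0.87 higher on control 3 and 0.13 higher on mutant 1. Squamous basal genes, 10 of 10 tested, were 0.04 and 0.31 higher on these arrays. Of the glandular genes 22 of 30 were well above background on all 6 arrays. The part of these markers in the claudin values was not tested.

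**Figure D4:**
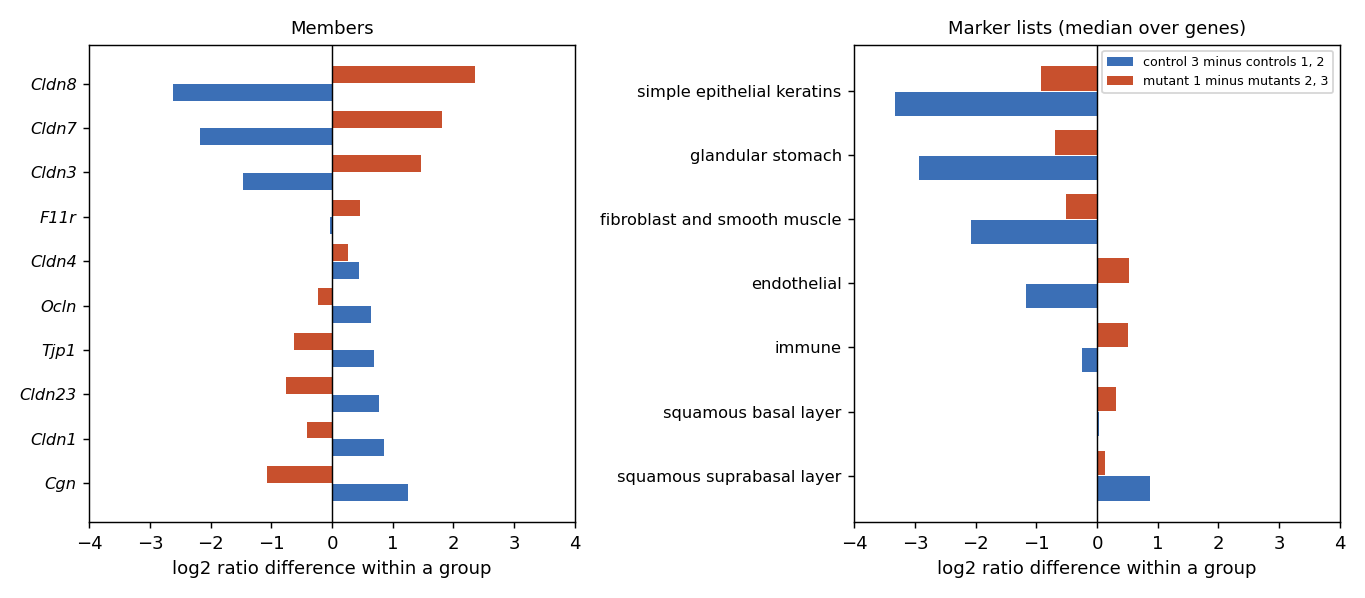
Log2 ratio of control 3 minus the mean of controls 1 and 2 (blue) and of mutant 1 minus the mean of mutants 2 and 3 (red), for the 10 genes on the left and as the median of each marker list on the right. Cldn8, Cldn7 and Cldn3 point down on control 3 and up on mutant 1, whereas the glandular list points down on both, by 2.94 and 0.69.

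By the rule of highest Pearson correlation over the 6 arrays, the genes most like Cldn7 were Psma5, Ciapin1 and Exosc8 (r = 0.999 each) and Cep135 and Pkm (r = 0.998 each). Psma5 and Exosc8 are subunits of the proteasome and of the RNA exosome, and Pkm is a pyruvate kinase. Their differences between the groups were 0.47, 0.99, 0.87, 0.67 and 0.73, smaller than that of Cldn7, and none passed the threshold. Such likeness was common, since 1091 of 20480 genes had r above 0.95, and the arrays share their group, slide and near-identical pairs.

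Of the 19 other claudins listed, 15 were on the array and 10 passed the filter on dim probes. One of these rose in the mutants and none fell (limma, adjusted p under 0.05, against 1.4% of all genes higher and 1.43% lower). It was Cldn2, a claudin that forms a pore for cations and water in leaky epithelia. Its ratio was 0.77, 0.98 and -0.12 on the controls and 3.44, 4.08 and 3.23 on the mutants. The lowest mutant, at 3.23, lay far above the highest control, at 0.98. The means were 0.54 ± 0.58 and 3.59 ± 0.44 (SD, n = 3 each), a difference of 3.05 (SE 0.35) or 8.25-fold (limma, adjusted p = 0.0165). The spot, at chromosome X from 136345244 to 136345303 in mm9, was well above background on controls 1 and 2 but not on control 3. Its sample channel read 190, 215 and 49 units on the controls and 1562, 3730 and 1552 on the mutants before normalization, and its reference 64 to 95 and 116 to 193. The reference was not well above background on controls 2 and 3 and was 1.5-fold brighter on mutants after normalization, so the fold rests on dim control values.

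The size of the Cldn2 difference held while its call did not always. It lay between 2.71 and 3.63 over the alternative settings. The call was lost without control 1, control 2, mutant 2 or mutant 3 (limma, adjusted p = 0.0750, 0.0696, 0.0815 and 0.0763), with the scanner software's own processed signals (0.0567), with slide as a random block (0.228) and with the near-identical arrays averaged (0.258). Of the 10 immune genes tested, Cd68, Csf1r and Retnlg were called higher in the mutants, against 1.4% of all genes. Retnlg was well above background on no control array, so it passed the dim filter through the mutants alone. The other Csf1r probes gave 0.56 and 0.04, against 0.75 for the representing probe. The summed sample level of the immune list was 23950 to 71534 in controls and 97041 to 149061 in mutants. Cd68, a macrophage marker, was 1.49 log2 units higher (limma, adjusted p = 0.0166). The part of the immune genes in the Cldn2 difference was not tested.

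Cldn17, known as an anion pore in the kidney, was the one other claudin whose groups did not overlap. Its ratio was 3.03, 3.46 and 0.69 on the controls and 3.84, 4.02 and 3.77 on the mutants, a difference of 1.48 that missed the threshold (limma, adjusted p = 0.251). For this gene the difference was far larger in the separate channels than in their ratio. The sample spot read 846, 1461 and 85 on controls and 16331, 22141 and 23358 on mutants. The reference spot, though fed with one RNA throughout, read 84, 94 and 48 on controls and 1078, 1257 and 1514 on mutants. On control 3 neither channel was well above background, and without that array the difference was 0.63 (limma, adjusted p = 0.0839). The sample channel alone gave 5.05 after normalization, and over the 22 alternatives that tested this gene the difference ran from 0.29 to 5.05. It passed the threshold in 3 of them, with adjusted p from 0.0325 to 0.0478. Why the reference spot differed was not tested.

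The other claudins showed smaller differences or followed control 3. Cldn10 differed by -0.36 and Cldn15, a cation pore of the intestine, by 0.26 (limma, adjusted p = 0.225 and 0.428). Cldn18, the claudin of stomach and lung, was picked out after its values were seen because it followed the glandular genes. It had ratios of 4.65, 4.42 and 0.02 on the controls and 3.72, 4.43 and 4.23 on the mutants. Cldn6, Cldn11, Cldn13, Cldn16 and Cldn19 were on the array but too dim to test.

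No other junction protein passed the threshold in 11 of 11 membrane proteins, 23 of 24 scaffold and polarity proteins or 12 of 12 adherens junction proteins tested. Over all genes only 2.82% passed, so few calls would be looked for in lists of this size. Their median differences were -0.16, -0.12 and 0.10. Among the membrane proteins Ildr1, of the contacts where 3 cells meet, differed by 2.18 (limma, adjusted p = 0.0983), but its other probe gave 0.24 and its reference was not well above background on any array. Without control 3, on arrays of a single scan day, Ildr1 differed by 1.51 and passed (limma, adjusted p = 0.0203), as did 7.21% of all genes. Ildr1 passed in 4 of the 23 alternatives. Its relative Ildr2 differed by 0.45, or -0.05 by its other probe, and the polarity protein Crb3 by -0.62. The adhesion protein Bves differed by -1.15, or by -0.68 without mutant 1. Among the scaffold and polarity proteins Arhgef18 differed by 0.64 and Tjp3 by -0.55. The polarity protein Pard3 differed by -1.10, or by -0.86 without control 3 and -0.79 without mutant 1. The other Pard3 probes gave -0.21 to -1.05, and the other Arhgef18 probe 0.37. Tjp3 is a relative of Tjp1 (-0.38), and its ratios were 2.94 to 3.38 in controls and 2.39 to 2.72 in mutants. Of the 23 scaffold and polarity genes, 5 were higher and 7, Tjp3 among them, lower in mutants without overlap. Over all genes these shares were 19.7% and 18.2%. E-cadherin (Cdh1) of the adherens junction differed by -0.91, but by only -0.21 in the sample channel alone, and its common reference spot was 1.62-fold brighter on mutants. Nectin1 differed by -0.40, Nectin2 by -0.55 and the actin linker Vcl by 0.35.

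**Figure D5:**
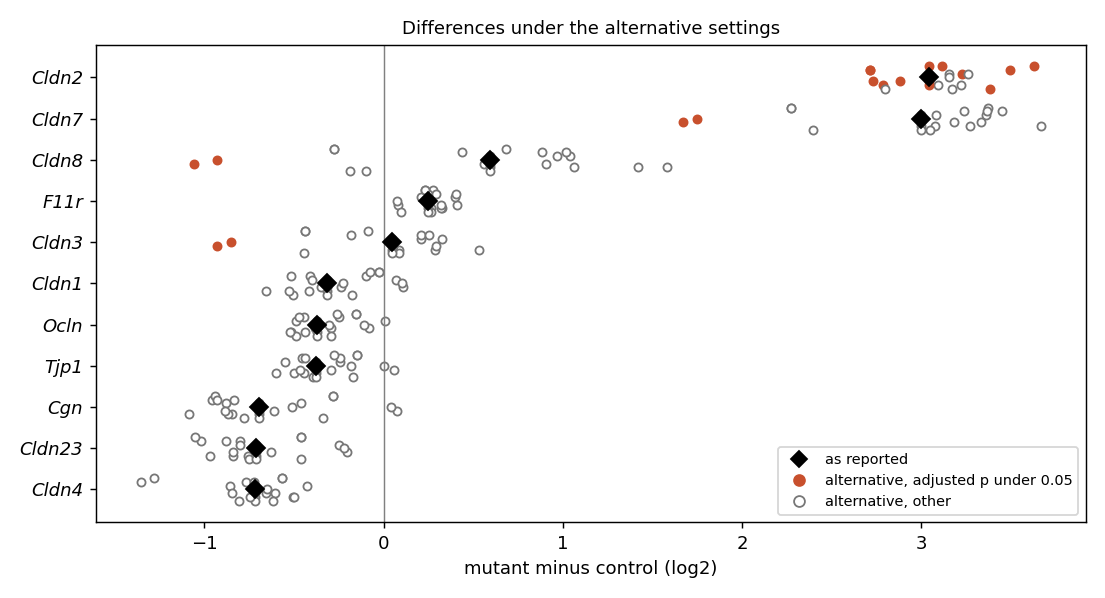
The difference of mutants minus controls (log2) for the 10 tight junction genes and Cldn2 as reported (black diamond) and under each alternative setting that tested the gene (circles, red where the adjusted p is under 0.05). Cldn7 stays between 1.67 and 3.67 and Cldn4 and Cldn23 stay below 0 throughout, whereas Cldn3 and Cldn8 fall on either side of 0.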

How the data were processed

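The authors deposited, per array, the scanner software's intensity of each spot and its local background in both channels. Agilent Feature Extraction made them, in version 10.5.1.1 (10.7.3.1 for control 3) per the file headers and 9.1 per the submitters' processing notes. A table of log2 ratios that the authors deposited covers the same arrays, running as sample over reference with slopes of 0.88 to 0.92 against the scanner ratios and column medians of 0.052, 0.06 and 0.026 for controls and 0.042, 0.043 and 0.039 for mutants. Its normalization and centring are unknown here. In it the columns of mutants 1 and 3 matched each other's scanner array (r = 0.985 and 0.984) better than their own (0.904 and 0.903). Array numbers here follow the scanner files.

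Normexp (offset 50) and loess were applied in limma 3.58.1 (R 4.3.3), without control spots and outlier flags, and spots of a probe were averaged. A probe entered when the software marked it well above background for the sample dye on 3 or more of 6 arrays, and a gene took its probe of highest mean sample intensity. RefSeq's table for GRCm38.p6 named 79.4% of 41174 probes, and the rest kept the file's name. Groups were compared with lmFit and eBayes (4 residual degrees of freedom before moderation), two-sided, with Benjamini-Hochberg adjustment. Channel values are after loess and Aquantile. The labels call the arrays biological replicates, and p-values measure the spread between them. The scripts were tested on simulated data. Promoters are RefSeq's.

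The genes and lists were chosen with earlier results of these data known. Named beyond the 10 genes are list members past the threshold, the 4 smallest p per junction list, Sox2 and Gt(ROSA)26Sor, defining markers, and the 5 genes most like the one with the smallest p. One gene that this rule names is not reported here. Alternatives concerned background, normalization, channel, the deposited table, the dim filter, probes of a gene, slide, scan day, replicate number, near-identical arrays, array weights and each array left out. Replicate numbers did not pair the arrays: deviations of same-numbered arrays correlated at 0.005, 0.019 and 0.126.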

Additional observations from a re-analysis of the deposited data

How the results depend on the processing

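None of the 10 genes passed the threshold in 21 of the 23 alternatives, and 3 (Cldn3, Cldn7 and Cldn8) did in the other 2, without control 3 and mutant 1 and with array weights. Of the 23, Aquantile after loess leaves every ratio as it was, and scan day as a block is the same fit as leaving out control 3. The number of all genes called, 581, was 325 with the software's processed signals, 266 without loess, 312 and 346 in the sample channel with quantile and Aquantile, 1483 with scan day as a block, 7726 without control 3 and mutant 1, 8591 with array weights, and 34 to 1483 with 1 array left out. It was 4 with slide as a random block, and 0 with near-identical arrays averaged, where 2197 of 20567 had an unadjusted limma p under 0.05. The replicate block gave 137 calls and no other verdict on any of the 10 genes; only 1 of 3 controls correlated best with its own number.

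Of 230 values for the 10 genes, 21 turned sign. Scaling arrays to one spread gave Cldn1 0.070 and Ocln 0.0058 and moved the median of the 10 genes from -0.34 to 0.038. Cldn10, which is outside the 10 genes and not in that count, was 0.0065 in the same setting. Cldn3 was -0.18 and -0.089 in the sample channel with quantile and Aquantile, -0.44 with scan day as a block and -0.44 to 0.33 with 1 array left out. Cldn8 was -0.10 in the deposited table, -0.28 with scan day as a block and -0.28 to 1.07 with 1 array left out. Without control 3 and mutant 1, Cldn1 was 0.11, Cldn3 -0.93, Cldn8 -1.06, Tjp1 0.059 and Cgn 0.077, and with array weights 0.10, -0.85, -0.93, 0.0027 and 0.040. The causes were not tested. Cldn4, Cldn7, Cldn23 and F11r kept their sign in all 23. Values without saturated arrays were not run because no spot of the 10 genes was saturated. Dim reference spots limit the ratios of Cldn3, Cldn4 and Cldn8.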
